A study of Mus musculus with 4 samples.

Results

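The genes described here are endothelial receptor and vessel genes. These 36 genes were chosen by name for endothelial identity, for the receptors and ligands that direct vessel growth, and for lymphatic fate. The list was written with earlier results of these data known. Shares set against all genes below therefore describe the list only. The 36 genes were looked up by symbol among the 34682 rows of a count table from mouse ovaries at E13.5. A row was present for 35 of them, and all 35 passed the filter on low counts among 15442 genes tested. Robo4os, a transcript named for its position opposite Robo4, has no row under that symbol and is not analysed here. Robo4 itself, a vessel guidance receptor, had 234 and 326 counts in mutant against 367 and 393 in wild-type ovaries. The mutant libraries held fewer counts in total. After scaling for library size (CPM, defined below), Robo4 was nearly level, at 21.2 and 21.7 CPM in mutant against 21.3 and 22.3 CPM in wild-type ovaries. Its log2 fold change was -0.023.

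RNA-seq libraries were made from ovaries of Sall1-overexpressing mutants (replicates 1 and 2) and of wild-type embryos (replicates 1 and 2), all dissected at E13.5, where E stands for the embryonic day. The mutants carry a bacterial artificial chromosome in which the coding sequence of Sall1, a zinc finger transcription factor, replaces Wt1 behind the Wt1 promoter and regulatory elements, inserted by piggyBac transposition into female embryonic stem cells. Wt1 is active in the somatic cells of the gonad. The stem cells came from C57BL/6J or from its hybrid with 129. The controls are called littermates in the account of the results and CD1 in the methods, and the wild-type count columns carry the tag B6, so that strain and genotype cannot be told apart. The sources used here do not give the number of embryos per library or the number of clones. Sall1 counts were 1243 and 1445 in mutant and 279 and 223 in wild-type ovaries, which matches the labels.

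Vessels of the fetal gonad are lined by endothelial cells that are joined by VE-cadherin (Cdh5) and PECAM1 and that read growth signals through receptor tyrosine kinases. VEGF-A acts mainly through KDR (VEGFR2), while FLT1 (VEGFR1) binds and sequesters it, and VEGF-C acts through FLT4 (VEGFR3), the main receptor of lymphatic growth. Angiopoietin 1 activates the receptor TEK (Tie2) and stabilises vessels, and angiopoietin 2 competes with it at the same receptor. In the fetal ovary vessels enter from the mesonephric border, and the XY gonad at this age is known for its coelomic artery, which the XX gonad lacks.

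The libraries held between 11036313 and 17869840 counts, and the mutant libraries were the shallower ones. Levels are given as CPM, a gene's counts relative to the library's total count after scaling by edgeR's TMM factors, and a count of 3, taken as the floor of detection, corresponds to between 0.17 and 0.272 CPM. RNA of endothelial cells was present in each library, as 10 defining markers (Pecam1, Cdh5, Kdr, Tie1, Tek, Emcn, Egfl7, Esam, Cldn5 and Eng) were each detected. These 10 are themselves among the 36 genes, so they are no independent check of the label. Of 51 other endothelial genes 46 passed the filter on low counts, beside 15442 of all 34682 rows. That list was written with earlier results of these data known and includes genes that stromal cells also express. It is therefore no independent check either. Together the 10 markers made up between 0.0543% and 0.0605% of all counts. Every value refers to whole ovaries, in which fewer endothelial cells and less RNA per endothelial cell cannot be told apart. Nothing in the sources used here says that the replicates come from separate litters, so p-values measure only the spread between these libraries.

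None of the 35 genes passed edgeR's quasi-likelihood test of mutant against wild type, fitted on genotype alone, at an adjusted p under 0.05. Of all genes tested, 0.0583% passed. The default DESeq2 test, at which 0.694% of the genes with an adjusted p were called, also called 0 of the 35. The edgeR count changed when the replicate number was added to the fit, as the section on processing describes. In comparisons of genotypes, edgeR's test below means the fit on genotype alone. At an unadjusted p under 0.05, 5 of the 35 were below the threshold (14.3%), against 5.69% of all genes. These were Kdr, Vwf, Tal1 and Sox7, with lower values in the mutant ovaries, and Angpt2, with higher values. The median log2 fold change over the 35 genes was -0.143, beside -0.000881 over all genes tested, and 29 of them lay within 0.5 of zero.

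**Figure D1:**
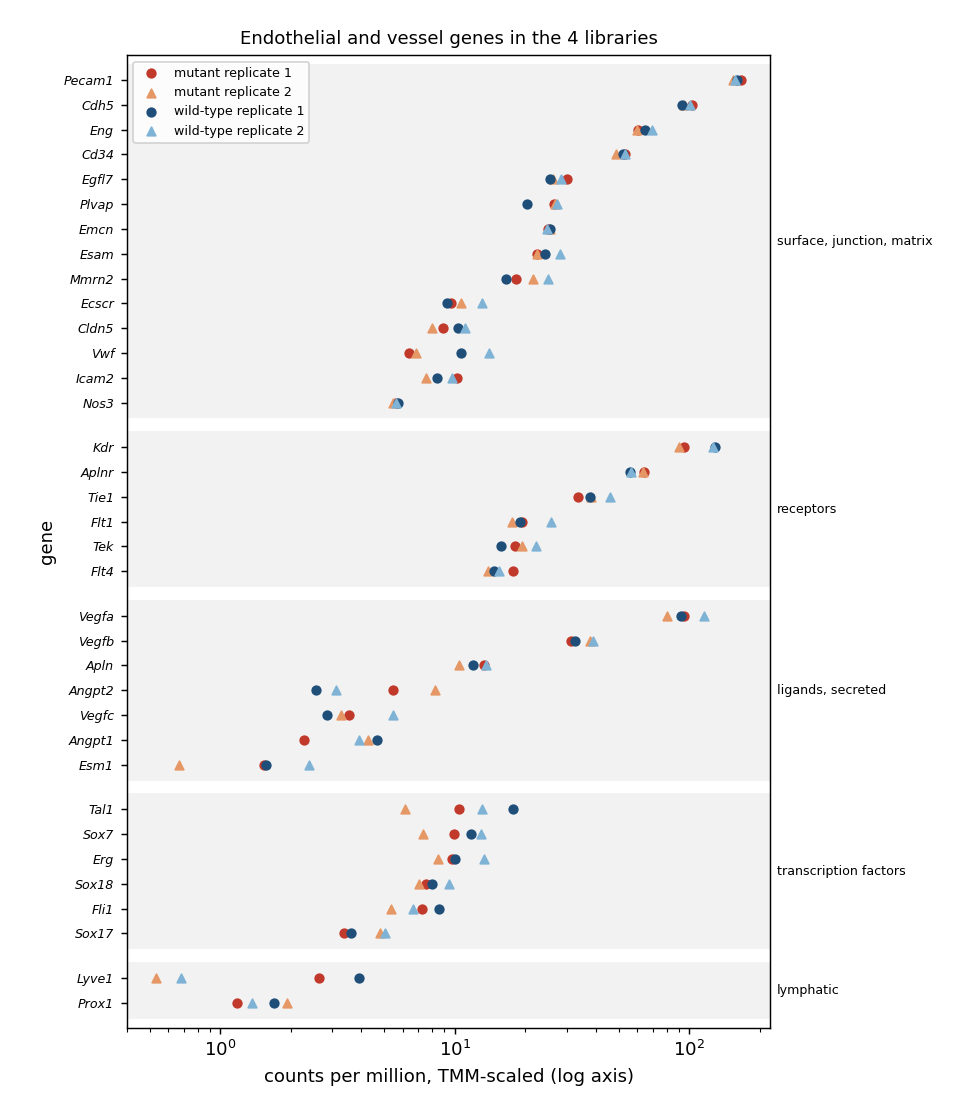
Level of each of the 35 measured genes in the 4 libraries, in TMM-scaled CPM on a logarithmic axis, with genes ordered by level within role groups. The levels run from 0.532 CPM for Lyve1 in mutant replicate 2 to 166 CPM for Pecam1 in mutant replicate 1; the mutant points of Kdr, Vwf and Tal1 lie to the left of the wild-type points and those of Angpt2 to the right.

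Levels of different genes were compared per kilobase of the longest protein-coding transcript (RPKM, from the TMM-scaled CPM and GENCODE M1 lengths). Pecam1 was highest, at 46.1 ± 1.63 RPKM (SD over the 4 libraries). The growth factors Vegfb and Vegfa came next at 27.4 ± 2.94 and 27.2 ± 4.2 RPKM, followed by Cdh5 at 24.6 ± 1.16 RPKM, and the ranges of neighbours in this order overlapped among these 3. Among the receptors, Kdr at 18.6 ± 3.4 RPKM and Aplnr at 16.8 ± 1.22 RPKM stood above Tie1 (9.47 ± 1.27), Tek (4.05 ± 0.572), Flt1 (2.95 ± 0.521) and Flt4 (2.47 ± 0.262). The least abundant were Angpt1 (0.886 ± 0.245), Lyve1 (0.741 ± 0.62), Esm1 (0.734 ± 0.334) and Prox1 (0.373 ± 0.081), of which each overlapped the next in this order. The place of Lyve1 rests on a mean over unlike libraries, which run from 0.204 RPKM in mutant replicate 2 to 1.49 RPKM in wild-type replicate 1, and in wild-type replicate 1 it was above Nos3 (1.38 RPKM) and Vwf (1.2 RPKM).

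The mutant and wild-type libraries were next compared separately in replicate 1 and in replicate 2. A single library stands on each side of such a ratio, so its 95% interval (exact Clopper-Pearson) covers counting error only. In replicate 1 the 35 genes were balanced, with 19 lower and 16 higher in the mutant and a median log2 ratio of -0.023. In replicate 2, 30 were lower and 5 higher, with a median of -0.273. The medians of all genes tested were -0.000274 and -0.00422 in the same replicates. The shift toward lower values in the mutant therefore came mostly from replicate 2.

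Of the 35 genes, 16 were lower in the mutant in both replicates (45.7%, against 27.3% of all genes) and 2 were higher in both (5.71%, against 26.5%). The remaining 17 differed in sign between the replicates, 14 of them being higher in the mutant of replicate 1 and lower in that of replicate 2. The mutant libraries lay below both wild-type libraries for 10 genes (28.6%, against 15.1% of all genes) and above both for 2 (5.71%, against 15.8%). The 10 genes were Kdr, Vwf, Tal1, Sox7, Sox18, Erg, Eng, Esam, Cldn5 and Esm1, and the 2 were Angpt2 and Aplnr. For 1 gene taken alone, the smallest p that 2 against 2 libraries allow in an exact two-sided permutation test is 0.333.

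**Figure D2:**
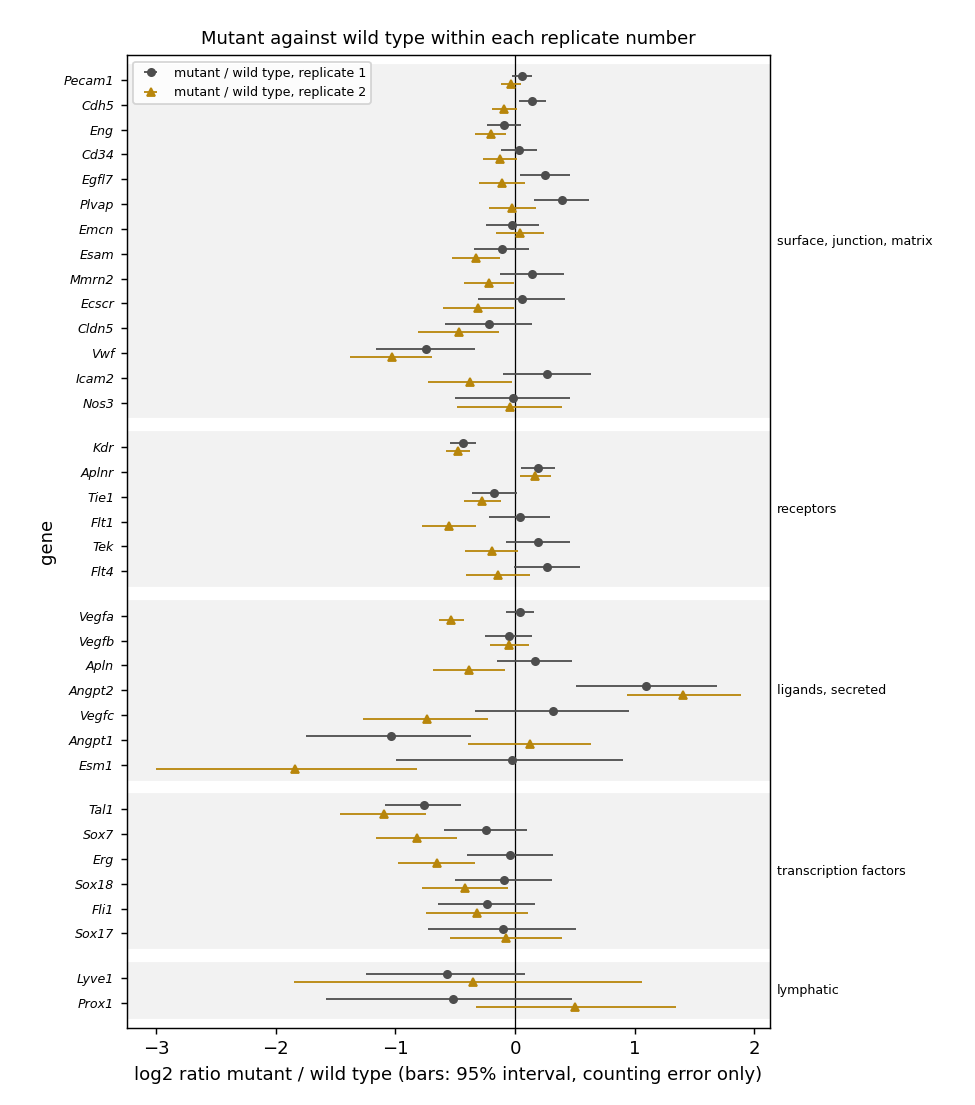
Log2 ratio of mutant to wild type for each gene within replicate 1 (circles) and within replicate 2 (triangles); bars are 95% intervals that cover counting error only, and the vertical line marks no difference. Both intervals lie below 0 for Kdr, Vwf and Tal1 and above 0 for Angpt2 and Aplnr, while those of Vegfa, Flt1 and Cdh5 do not overlap between the replicates.

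In both replicates the counting interval lay below 0 for 3 genes, Kdr, Vwf and Tal1 (8.57%, against 4.74% of all genes), and above 0 for 2, Angpt2 and Aplnr (5.71%, against 4.81%). The intervals of the replicates were apart from each other for 3 genes (8.57%, against 15.2% of all genes), namely Cdh5, Flt1 and Vegfa. For every other member these intervals overlapped.

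The 14 genes of the endothelial surface, junction and matrix had a median log2 fold change of -0.047. In both replicates 5 of them were lower and 0 higher in the mutant (35.7% and 0%, against 27.3% and 26.5% of all genes). Pecam1, a homophilic adhesion molecule of the endothelial junction, had 166 and 153 CPM in mutant and 160 and 156 CPM in wild-type ovaries. The groups overlapped, and the log2 fold change was 0.01 (standard error 0.09). Cdh5, the cadherin of adherens junctions in endothelium, had 103 and 95.1 CPM in mutant and 93.3 and 101 CPM in wild-type ovaries. Its log2 ratio was 0.14 (0.03 to 0.26) in replicate 1 and -0.089 (-0.19 to 0.01) in replicate 2, so the replicates pointed in opposite directions. Emcn, an endothelial sialomucin, was at 25 and 25.5 CPM in mutant against 25.5 and 24.8 CPM in wild-type ovaries, and Nos3, the endothelial nitric oxide synthase, was at 5.63 and 5.45 against 5.7 and 5.61 CPM. Relative to their level these were the narrowest spreads among the 35 genes, with log2 fold changes of 0.01 and -0.03.

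Cd34, a sialomucin shared with blood progenitors, had 53.1 and 48.6 CPM in mutant and 51.9 and 53.2 CPM in wild-type ovaries. Egfl7, a secreted factor that carries the endothelial microRNA Mir126 in its intron, had 30.2 and 26.2 against 25.4 and 28.3 CPM. Both overlapped between the groups. Plvap, which forms the diaphragms of fenestrated endothelium, had 26.6 and 26.8 CPM in mutant and 20.3 and 27.2 CPM in wild-type ovaries, so that wild-type replicate 1 alone was low. Over all libraries Plvap differed by 0.168 on the log2 scale (standard error 0.17, adjusted p = 1 in edgeR's test). Icam2, an adhesion ligand for leukocytes, Ecscr, a surface regulator of endothelial migration, and Mmrn2, a matrix protein of the vessel wall, were each higher in the mutant of replicate 1 (log2 ratios 0.27, 0.06 and 0.14) and lower in that of replicate 2 (-0.376, -0.306 and -0.218). The remaining genes of this group were lower in the mutant in both replicates without passing the test.

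Among those, Eng, a co-receptor for TGF-beta family ligands, had 60.6 and 59.8 CPM in mutant and 64.6 and 69.0 CPM in wild-type ovaries, and the log2 fold change was -0.149 (standard error 0.10). Esam, a tight junction adhesion molecule, had 22.5 and 22.3 against 24.3 and 28 CPM (log2 fold change -0.222). Cldn5, the main claudin of endothelial tight junctions, had 8.89 and 7.98 against 10.3 and 11 CPM (log2 fold change -0.345). The groups did not overlap for these 3 genes, and their adjusted p was 1 in edgeR's test.

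Vwf stood apart from the other surface and matrix genes. It encodes von Willebrand factor, which endothelial cells store for release at sites of injury, and lies on chromosome 6 from 125496792 to 125636697 (NCBIM37, plus strand). Its counts were 70 and 103 in mutant and 183 and 247 in wild-type ovaries, or 6.35 and 6.85 against 10.6 and 14.0 CPM. Both mutant libraries were below both wild-type libraries. The log2 ratio was -0.744 (-1.163 to -0.339) in replicate 1 and -1.032 (-1.378 to -0.694) in replicate 2. Over all libraries the log2 fold change was -0.898 (standard error 0.22), a mutant level of 0.537 times the wild-type level, at an adjusted p of 0.409 in edgeR's test and 0.406 in DESeq2.

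The 6 receptors had a median log2 fold change of -0.124. In both replicates 2 of them were lower and 1 higher (33.3% and 16.7%, against 27.3% and 26.5% of all genes). Among them, Kdr had the smallest p of all 35 genes. The gene, on chromosome 5 from 76328852 to 76374483 (NCBIM37, minus strand), encodes the main signalling receptor for VEGF-A. Mutant ovaries gave 1048 and 1362 counts and wild-type ovaries 2212 and 2222, or 95.1 and 90.5 CPM against 129 and 126 CPM. The gap between the groups was wider than the spread within either of them. In replicate 1 the log2 ratio was -0.435 (-0.543 to -0.328) and in replicate 2 it was -0.476 (-0.574 to -0.378). The log2 fold change was -0.456 (standard error 0.09), or 0.729 times the wild-type level, at an adjusted p of 0.266 in edgeR's test. With DESeq2 the adjusted p was 0.058.

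Kdr was also lower relative to Cdh5 and to Pecam1 of the same library, a comparison that does not depend on scaling between libraries. Both of these genes were nearly level between the groups. There were 0.922 and 0.952 Kdr counts per Cdh5 count in mutant against 1.38 and 1.24 in wild-type ovaries. Per Pecam1 count, the values were 0.571 and 0.592 against 0.804 and 0.805. In both cases the mutant libraries lay together below the wild-type libraries. Per Vegfa count, Kdr was at 1 and 1.13 in mutant against 1.39 and 1.08 in wild-type ovaries, and these values overlapped. The summed level of the 10 endothelial markers was 563 and 538 CPM in mutant and 585 and 613 CPM in wild-type ovaries. Without Kdr the remaining 9 markers summed to 468 and 447 CPM in mutant and 457 and 487 CPM in wild-type ovaries, and these ranges overlapped.

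For none of the other 5 receptors did the counting interval lie below 0 in both replicates. Aplnr, the apelin receptor of growing vessels and venous endothelium, was the only receptor above wild type in both replicates, at 63.9 and 63.4 CPM in mutant and 55.9 and 56.4 CPM in wild-type ovaries. The libraries of each group nearly coincided and the groups were apart, but the log2 fold change was small, 0.18 (standard error 0.10, adjusted p = 1 in edgeR's test). Tie1, an orphan partner of TEK, had 33.4 and 38.0 against 37.7 and 45.9 CPM, overlapping. Tek, the angiopoietin receptor, had 18.1 and 19.3 CPM in mutant and 15.8 and 22.2 CPM in wild-type ovaries, and the log2 fold change was -0.021. Both mutant values of Tek lay between the wild-type values.

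Flt1, the decoy receptor, was level in replicate 1 (19.4 CPM in mutant against 18.9 CPM in wild type) and lower in the mutant of replicate 2 (17.5 against 25.6 CPM). The log2 ratios of 0.04 (-0.216 to 0.29) and -0.551 (-0.776 to -0.329) did not overlap, so the 2 pairs of libraries differed by more than counting error. Flt4, the VEGF-C receptor, had 17.7 and 13.9 against 14.7 and 15.4 CPM and overlapped. The count of Flt4 per Kdr count was 0.186 and 0.153 in mutant and 0.114 and 0.122 in wild-type ovaries, without overlap. Per Kdr count, Tek was at 0.19 and 0.214 against 0.123 and 0.176, also without overlap, whereas Flt1 was at 0.204 and 0.193 against 0.147 and 0.203 and overlapped.

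**Figure D3:**
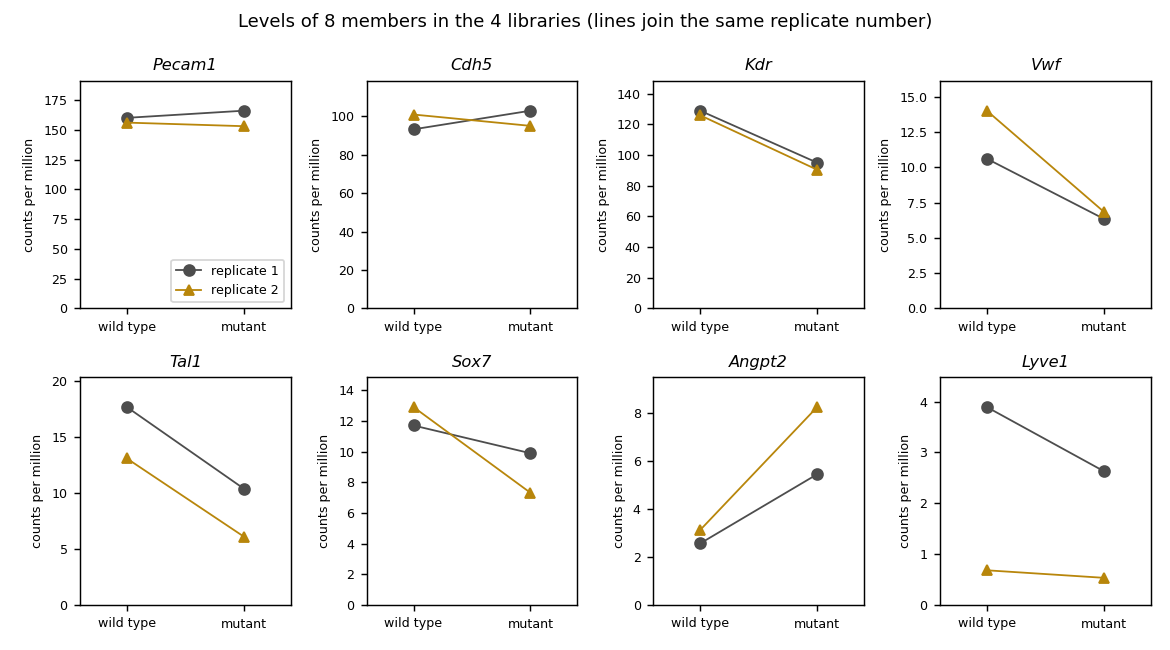
TMM-scaled CPM of 8 genes in wild-type and mutant ovaries, with lines joining libraries of the same replicate number and each vertical axis starting at 0. Pecam1 and Cdh5 are level, the lines of Kdr, Vwf, Tal1 and Sox7 descend in both replicates and those of Angpt2 ascend, and Lyve1 differs mainly between replicate numbers (2.63 and 3.89 CPM in replicate 1, 0.532 and 0.68 CPM in replicate 2).

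The 7 ligands and secreted factors had a median log2 fold change of -0.252. In both replicates 2 of them were lower and 1 higher (28.6% and 14.3%, against 27.3% and 26.5% of all genes). Angpt2 had the largest log2 fold change of the 35 genes in either direction. It lies on chromosome 8 from 18690263 to 18741562 (NCBIM37, minus strand) and encodes angiopoietin 2, which endothelial cells release when vessels are remodelled. Counts were 60 and 124 in mutant ovaries and only 44 and 55 in the more deeply sequenced wild type, or 5.44 and 8.24 CPM against 2.56 and 3.12 CPM. Both mutant libraries were above both wild-type libraries. The log2 ratio was 1.09 (0.51 to 1.69) in replicate 1 and 1.403 (0.93 to 1.89) in replicate 2. The log2 fold change was 1.27 (standard error 0.31), 2.42 times the wild-type level, at an adjusted p of 0.425 in edgeR's test and 0.355 in DESeq2.

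Angpt1, the opposing ligand, which perivascular cells make, had 2.27 and 4.25 CPM in mutant and 4.65 and 3.91 CPM in wild-type ovaries. Only mutant replicate 1 was low, with 25 counts, and the groups overlapped. The count of Angpt2 per Angpt1 count was 2.4 and 1.94 in mutant and 0.55 and 0.797 in wild-type ovaries. Per kilobase, Angpt2 was at 1.53 and 2.31 RPKM and Angpt1 at 0.533 and 0.999 RPKM in mutant ovaries. In wild-type ovaries Angpt2 was at 0.719 and 0.876 RPKM and Angpt1 at 1.09 and 0.919 RPKM, so that Angpt2 was the higher of the pair in both mutant libraries and in neither wild-type library.

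None of the VEGF ligands passed the test. Vegfa had 95 and 80.4 CPM in mutant and 92.4 and 116 CPM in wild-type ovaries. Its log2 ratio was 0.04 (-0.073 to 0.15) in replicate 1 and -0.532 (-0.635 to -0.428) in replicate 2, the same split as for Flt1. Vegfb, a ligand of FLT1, had 31.3 and 37.6 against 32.4 and 38.9 CPM, and its ratios of -0.051 and -0.05 were alike in the 2 replicates. Vegfc, the lymphatic ligand, had 3.54 and 3.26 against 2.85 and 5.44 CPM and overlapped.

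Apln, the ligand of APLNR, had 13.3 and 10.4 CPM in mutant and 11.9 and 13.6 CPM in wild-type ovaries, again higher in the mutant of replicate 1 only. Esm1, a proteoglycan secreted by endothelial tip cells, rested on 17 and 10 counts in mutant and 27 and 42 counts in wild-type libraries. Its levels were 1.54 and 0.665 against 1.57 and 2.38 CPM, so that the log2 ratio was -0.025 in replicate 1 and -1.84 (-3.001 to -0.822) in replicate 2. Over all libraries Esm1 differed by -0.871 on the log2 scale (standard error 0.52, adjusted p = 1 in edgeR's test).

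All 6 endothelial transcription factors were lower in the mutant in both replicates, with log2 fold changes from -0.91 to -0.079 and a median of -0.319, beside 27.3% of all genes that were lower in both. None of the 6 passed edgeR's or DESeq2's test. The smallest difference, that of Sox17, had counting intervals across 0 in both replicates and lay between -0.366 and 0.196 with single libraries left out. Tal1 had the largest difference. It encodes a basic helix-loop-helix factor of the blood and endothelial lineages that stays active in erythroid cells. The gene lies on chromosome 4 from 114729031 to 114744360 (NCBIM37, plus strand). Tal1 counts were 115 and 92 in mutant and 305 and 231 in wild-type ovaries, or 10.4 and 6.11 against 17.7 and 13.1 CPM. The groups did not overlap. The log2 ratio was -0.765 (-1.087 to -0.451) in replicate 1 and -1.098 (-1.463 to -0.743) in replicate 2. The log2 fold change was -0.91 (standard error 0.29). The adjusted p was 0.659 in edgeR's test and 0.429 in DESeq2. With single libraries left out, the log2 fold change of Tal1 ranged from -1.333 without mutant replicate 1 (adjusted p = 0.0415 in edgeR's test) to -0.563 without mutant replicate 2 (adjusted p = 0.798). It was -0.674 without wild-type replicate 1 and -1.102 without wild-type replicate 2 (adjusted p = 1 and 0.558), so it passed the threshold in 1 of these 4 fits.

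Of 14 erythroid markers with a row, 10 were tested. In both replicates 9 of these were lower in the mutant, beside 27.3% of all genes. The median log2 fold change of the 10 was -0.812. None of the 10 passed edgeR's test, and 4 were lower at an unadjusted p under 0.05, beside 5.69% of all genes in either direction. The summed level of the 14 was 3230 and 889 CPM in mutant and 3590 and 1750 CPM in wild-type ovaries. It was carried mainly by the embryonic globin Hbb-y, while 3 adult globin genes had 0 counts in every library. Whether reads of such rows could be counted was not tested, so these zeros are not read as absence. Klf1, a defining erythroid factor, had 13 and 8 counts in mutant and 73 and 45 in wild-type libraries. Lyl1, a close relative of Tal1, had 32 and 37 against 79 and 76 counts. The part of erythroid cells in the difference of Tal1 was not tested. Per Pecam1 count, Tal1 was at 0.0627 and 0.04 in mutant and 0.111 and 0.0837 in wild-type libraries.

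Of the SOX factors of group F, which act together in arterial and lymphatic specification, Sox7 had 9.89 and 7.31 CPM in mutant and 11.7 and 12.9 CPM in wild-type ovaries. The groups were apart, and Sox7 differed by -0.523 on the log2 scale (standard error 0.21, adjusted p = 0.857 in edgeR's test). Its log2 ratio was -0.24 (-0.59 to 0.10) in replicate 1 and -0.821 (-1.163 to -0.487) in replicate 2. Sox18 had 7.53 and 7.05 against 8.02 and 9.41 CPM, apart by a narrow margin. Sox17 had 3.36 and 4.79 against 3.6 and 5.04 CPM, and its values followed the replicate number rather than the genotype.

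The ETS factors Erg and Fli1 bind the regulatory elements of many endothelial genes. Erg had 9.71 and 8.44 CPM in mutant and 10 and 13.3 CPM in wild-type ovaries, which puts mutant replicate 1 and wild-type replicate 1 almost at the same level. Fli1 had 7.26 and 5.32 against 8.54 and 6.63 CPM and overlapped. Their log2 fold changes were -0.361 and -0.277, at an adjusted p of 1 for both in edgeR's test.

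To show the regulatory sequence in front of the genes discussed above, promoters were taken from RefSeq (build GRCm38.p6), where 18 of the 36 genes had 25 entries. The 250 bases upstream of the transcript start are printed for Kdr and Tal1, the members with an entry that had the lowest p. They are also printed for Flt1 and Tie1, which are among the receptors that overlapped between the groups. Capitals mark GGAAG on either strand, a short form of the ETS binding core. Coordinates are on GRCm38.p6 and differ from the NCBIM37 positions given for the genes.
Kdr (chr5:75978456-75978705, minus strand): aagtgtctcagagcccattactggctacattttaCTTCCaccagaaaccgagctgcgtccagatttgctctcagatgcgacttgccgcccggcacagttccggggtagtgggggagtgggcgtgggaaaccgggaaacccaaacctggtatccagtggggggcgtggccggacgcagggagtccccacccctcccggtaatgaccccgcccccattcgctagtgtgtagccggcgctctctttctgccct
Tal1, first entry (chr4:115056176-115056425, plus strand): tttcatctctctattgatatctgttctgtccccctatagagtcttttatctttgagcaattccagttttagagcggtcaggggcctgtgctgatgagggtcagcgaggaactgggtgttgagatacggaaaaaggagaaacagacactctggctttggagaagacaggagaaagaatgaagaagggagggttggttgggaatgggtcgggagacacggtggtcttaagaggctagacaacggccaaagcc
Tal1, second entry (chr4:115057561-115057810, plus strand): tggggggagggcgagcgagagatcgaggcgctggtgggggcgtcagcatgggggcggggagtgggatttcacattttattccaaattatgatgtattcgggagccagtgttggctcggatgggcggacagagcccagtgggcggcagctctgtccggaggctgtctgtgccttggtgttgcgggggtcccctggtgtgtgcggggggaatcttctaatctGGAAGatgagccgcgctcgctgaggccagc
Flt1 (chr5:147726012-147726261, minus strand): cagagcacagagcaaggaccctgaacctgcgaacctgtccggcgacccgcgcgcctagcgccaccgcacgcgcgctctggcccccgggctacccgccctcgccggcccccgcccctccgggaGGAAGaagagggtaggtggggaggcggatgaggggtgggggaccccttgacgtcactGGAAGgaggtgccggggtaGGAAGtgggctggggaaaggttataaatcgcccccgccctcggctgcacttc
Tie1 (chr4:118489850-118490099, minus strand): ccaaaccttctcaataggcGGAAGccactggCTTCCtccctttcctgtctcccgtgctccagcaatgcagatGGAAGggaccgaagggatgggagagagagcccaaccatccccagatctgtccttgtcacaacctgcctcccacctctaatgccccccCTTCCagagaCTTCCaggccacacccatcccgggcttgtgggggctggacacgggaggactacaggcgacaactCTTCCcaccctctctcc

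Kdr held 1 such match, starting 216 bases before the transcript start, Flt1 held 3 and Tie1 6. Of the receptors that overlapped between the groups but are not printed, Tek held 0 and Flt4 held 1. The first Tal1 entry had 0 matches and the second had 1, starting 30 bases before the start. Over all members with an entry, 17 of 25 promoters (68%) held GGAAG, beside 64.1% of all 32851 promoters of the same length. The longer form CGGAAG was found in 1 of the 25 (4%), that of Tie1, beside 13.6% of all. GATAA, which zinc finger factors of the erythroid and endothelial lineages bind, was found in 4 of 25 (16%) beside 22.6%, and it was present in the first Tal1 entry. The sequence CANNTG, which helix-loop-helix factors such as TAL1 bind, was found in 14 of 25 (56%) beside 66.2%, with 1 match in Kdr and 1 in Tie1. ACAAT, a SOX core motif, was found in 4 of 25 (16%) beside 27.7%. The short ETS form overlaps the longer one by construction, and these matches are descriptions of letters, not of binding.

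Of the lymphatic genes, Lyve1 was the only one of the 35 called between replicate numbers. Lyve1, a hyaluronan receptor of lymphatic endothelium that fetal tissue macrophages also carry, gave 29 and 8 counts in mutant and 67 and 12 in wild-type ovaries, or 2.63 and 0.532 against 3.89 and 0.68 CPM. Both libraries numbered 2 were far below both libraries numbered 1. In a fit with genotype and replicate number, the log2 difference of replicate 2 from replicate 1 was -2.414 (standard error 0.40, adjusted p = 0.00219 in edgeR's test), where 4.29% of all genes were called. DESeq2 gave -2.408 at an adjusted p of 0.224, so the call depends on the tool. Between genotypes its log2 fold change was -0.578 (standard error 0.93).

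The other lymphatic gene, Prox1, the transcription factor that sets lymphatic identity, had 1.18 and 1.93 against 1.69 and 1.36 CPM and did not follow Lyve1. Of 14 macrophage and leukocyte markers tested, 4 (Mrc1, C1qa, F13a1 and Timd4) were called lower in the libraries numbered 2 in the same fit and 0 higher, with the 16 genes that had a row summing to 125 and 78.8 CPM in mutant and 110 and 76.7 CPM in wild-type ovaries. Of these, Timd4, a receptor of resident macrophages, had 7 and 4 against 40 and 3 counts. Cd163 had between 0 and 5 counts, and Adgre1, which encodes the F4/80 antigen, had 0 counts in every library. The 0 of Adgre1 is likewise not read as absence. Of the 10 erythroid markers tested, 6 were called lower in the libraries numbered 2 and 0 higher. Both counts stand beside 4.29% of all genes called in that fit, in either direction. The part of these cells in the difference of Lyve1 was not tested. Over the 35 genes the median log2 difference of replicate 2 from replicate 1 was 0.04, with 20 higher and 15 lower, beside -0.00766 over all genes tested.

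**Figure D4:**
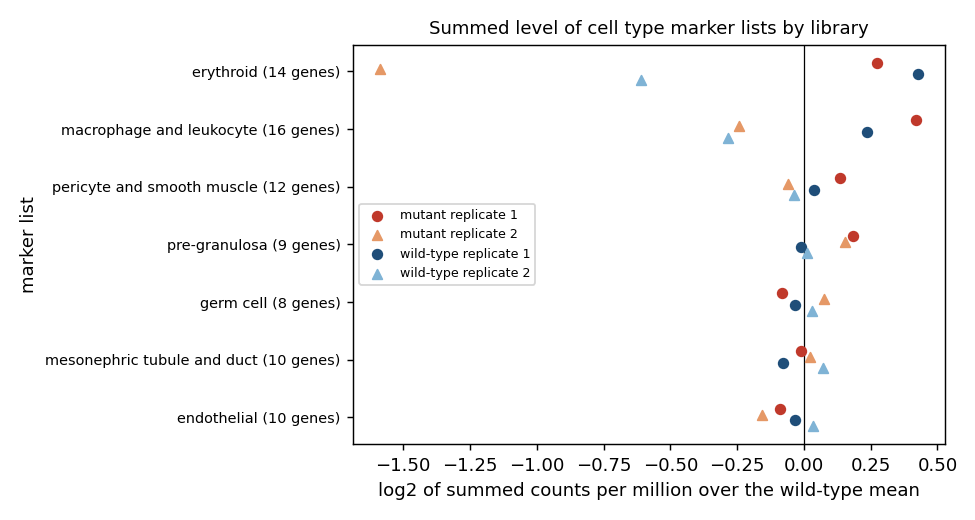
Summed level of 7 marker lists in each library, as log2 of the summed CPM over the mean of the wild-type libraries. The endothelial sum stays within a narrow range (538 to 613 CPM), whereas the erythroid sum (889 to 3590 CPM) and the macrophage sum (76.7 to 125 CPM) separate the replicate numbers.

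Genes of the same pathways outside the 35 were examined with lists written with earlier results of these data known. Of 34 further VEGF, angiopoietin and vessel signalling genes, 31 were tested, and 0 passed edgeR's test. At an unadjusted p under 0.05, 4 were lower in the mutant and 0 higher, beside 5.69% of all genes in either direction. In both replicates 12 of the 31 were lower and 7 higher, beside 27.3% and 26.5% of all genes. The median log2 fold change was -0.082. DESeq2 called 1 of the 31. This was Calcrl, the receptor subunit for adrenomedullin, with 14.3 and 11.1 CPM in mutant and 21.9 and 25.7 CPM in wild-type ovaries. Its log2 fold change was -0.91 (standard error 0.18). The adjusted p was 0.266 in edgeR's test and 0.0437 in DESeq2. S1pr1, the sphingosine 1-phosphate receptor that restrains sprouting, had 23.6 and 26.5 against 44.1 and 32.2 CPM, also without overlap, but did not pass either test (adjusted p = 0.553 and 0.366).

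Of 51 further genes of endothelial cells, 46 were tested and 0 passed in edgeR or DESeq2. At an unadjusted p under 0.05, 5 were lower and 0 higher, beside 5.69% of all genes in either direction. In both replicates 18 of the 46 were lower and 10 higher in the mutant, beside 27.3% and 26.5% of all genes. The median log2 fold change was -0.047. The 5 were Rhoj, a GTPase of endothelial migration, Clec14a, a surface lectin of vessels, Ppp1r16b, a phosphatase subunit, Ets1, an ETS factor that stromal cells also express, and Lyl1. Their log2 fold changes lay at -0.496, -0.446, -0.378, -0.245 and -0.734. Nr2f2, a factor of venous identity that gonadal stroma also expresses, had 67.7 and 44.8 against 85.9 and 69.6 CPM and differed by -0.472 on the log2 scale (standard error 0.20, adjusted p = 0.891 in edgeR's test and 0.804 in DESeq2).

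Because the endothelial sum differed slightly between the groups, each member was also set against the other endothelial markers in place of the library size, a comparison added after the data had been seen. On this scale the mean log2 difference was -0.412 for Kdr, -0.761 for Vwf, -0.805 for Tal1, -0.406 for Sox7 and 1.363 for Angpt2, each with the same sign in both replicates. The marker sum holds Kdr, which is itself lower in the mutant, so this scale shifts the other members upward by construction and nothing is read from how many of them then lie below wild type.

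Reads of genes that overlap on opposite strands could not be told apart where the counting ignored the strand. That setting is not given in the sources used here. Overlaps on the same strand, of Eng with Ak1 and of Egfl7 with Gm20532 and Mir126, do not depend on it. In the NCBIM37 annotation exons of Eng, Egfl7, Nos3, Cd34, Ecscr, Angpt1 and Prox1 overlap those of another gene, so the counts of these 7 are less certain. None of Kdr, Vwf, Tal1, Sox7 and Angpt2 had such an overlap.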

How the data were processed

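The authors aligned reads of the 4 mouse ovary libraries with STAR 2.6.1d (build mm9 per the labels, the same assembly as NCBIM37), counted them per gene with the R function summarizeOverlaps, and deposited the raw counts of each library, unnormalized and unpooled. The annotation and strand setting are not given in the sources used here. All count columns were matched to a library by genotype and replicate number, and 0 were left unused. The 36 genes, the lists and the role groups were chosen with earlier results of these data known.

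Counts were read into R 4.3.3 and tested in edgeR 4.0.16 (TMM, filterByExpr, quasi-likelihood F-test, Benjamini-Hochberg over all 15442 genes, adjusted p under 0.05) with genotype as the factor, or genotype and replicate number for the replicate difference. Each standard error is the fold change divided by the square root of F. As an alternative, DESeq2 1.42.0 with default settings, the tool the authors named, was run. Ratios within a replicate used effective library sizes; their medians and signs used log2 CPM with a prior count of 2. The endothelial scaling added 0.5 to each count. The fits were tested on simulated data in which 200 genes were changed by a log2 fold change of 2 in either direction. No replicate effect was simulated, so this does not show how the fits perform with such an effect or on smaller differences. Libraries of a group differed beyond sampling noise (chi-square per degree of freedom 12.7 in mutant, 14.2 in wild type). Intervals and the floor of 3 counts cover counting error only. By rule, all members were named, with full statistics for those called in edgeR, DESeq2 or the block fit and for the 3 largest and 3 smallest fold changes, and of the pathway lists those called in any of these fits. Other genes at an unadjusted p under 0.05, the pericyte genes, and Klf1, Klf2, Bcl6b, Timd4, Mrc1, C1qa, F13a1, Adgre1, Cd163, Hbb-y and Robo4, were named after their values were seen. Alternatives were the replicate block, other normalizations, filters and prior counts, and leaving out each library.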

Additional observations from a re-analysis of the deposited data

How the results depend on the processing

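The count of called members stayed at 0 with DESeq2, with RLE and upper-quartile normalization, with no filter and with at least 10 counts in every library, and was 0 or 1 when single libraries were left out. The replicate numbers are shared across genotypes, but nothing in the labels says what they mark; the count columns of same-numbered libraries carry neighbouring library numbers. Same-numbered libraries deviated together from their group means (correlation across genes 0.481, a description from 2 pairs), and the fit with the replicate block called 4 members and 385 of all genes, in place of 0 and 9. The members called with the block were Kdr (log2 fold change -0.456, adjusted p = 0.00637, edgeR), Tal1 (-0.924, 0.00881), Angpt2 (1.258, 0.0143) and Vwf (-0.897, 0.0181). Of the pathway lists it called Calcrl, S1pr1 and Nr2f2 (adjusted p = 0.00465, 0.0351 and 0.0159). All genes called were 105 with DESeq2, 28 with no filter, 19 with at least 10 counts in every library, and 4 to 130 when single libraries were left out, where the lone library of a group is assumed to vary like the other group. The cause was not tested.

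The members' median lay between -0.155 and -0.127 under the alternatives with all libraries and between -0.241 (without wild-type replicate 1) and -0.025 (without wild-type replicate 2) with each library left out. The medians within replicates kept their sign under the other normalizations, filters and prior counts; with the endothelial scaling that of replicate 1 became 0.041. The call of Lyve1 between replicate numbers was lost with DESeq2, which left 0 members called, and with at least 10 counts in every library, which removes Lyve1 and also left 0. Emcn, at 0.008, changed sign to -0.003 with upper-quartile normalization and to -0.00012 with no filter. With each library left out, the log2 fold changes of 17 members changed sign, none of them called, with these ranges: Pecam1 from -0.051 to 0.072, Cdh5 from -0.034 to 0.097, Icam2 from -0.276 to 0.159, Emcn from -0.005 to 0.029, Cd34 from -0.114 to 0.014, Plvap from -0.027 to 0.407, Ecscr from -0.373 to 0.145, Egfl7 from -0.037 to 0.169, Mmrn2 from -0.325 to 0.276, Flt4 from -0.115 to 0.234, Tek from -0.242 to 0.254, Vegfb from -0.189 to 0.1, Vegfc from -0.679 to 0.262, Apln from -0.291 to 0.062, Sox17 from -0.366 to 0.196, Lyve1 from -2.088 to 1.158, Prox1 from -0.367 to 0.338. Depth limits Esm1, Prox1, Lyve1, Angpt1, Vegfc, Sox17 and Nos3, which had fewer than 100 counts in every library.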

Other observations

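Markers of the cells that wrap vessels did not move together. Of 12 pericyte and smooth muscle genes, all tested, 0 passed edgeR's test. At an unadjusted p under 0.05, 3 were lower and 1 higher in the mutant, beside 5.69% of all genes in either direction. In both replicates 5 were lower and 2 higher, beside 27.3% and 26.5% of all genes. The summed level of the 12 was 548 and 479 CPM in mutant and 512 and 486 CPM in wild-type ovaries. A large part of this sum came from Anpep, which was higher in the mutant, so the sum does not show the direction of the other genes. Anpep, a surface peptidase of pericytes that other stromal cells also carry, was at 186 and 170 CPM in mutant and 117 and 103 CPM in wild-type ovaries, a log2 fold change of 0.69. Its adjusted p was 0.144 in edgeR's test and 0.000117 in DESeq2. Pdgfrb, the receptor that recruits pericytes, was at 83.1 and 80.7 against 91.7 and 103 CPM, and Cspg4 at 20.5 and 20.5 against 26.9 and 25.7 CPM, without overlap and without passing either test. Mcam, at 55.9 and 56.2 against 68.4 and 66 CPM, also did not overlap and passed neither test. Acta2 was lower in both replicates, at 40.6 and 22.7 against 58.2 and 37.1 CPM, but the groups overlapped. It passed only with the replicate block (adjusted p = 0.00571, edgeR).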
